A study of Mus musculus with 15 samples.

Results

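The comparison described here is the full course of morphogen treatment: cells collected after 14 days of differentiation, treated with morphogens from day 5, against cells collected at day 5 just before the treatment began. It uses 6 of the 15 arrays of the series, 3 from treated day 14 and 3 from day 5, chosen by their sample titles. The other arrays were 3 of treated day 9, 3 of control day 9 and 3 of control day 14.

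The cells were mouse epiblast stem cells (EpiSC), the pluripotent cells of the post-implantation embryo in culture, derived from Pitx3-GFP mice. These mice carry a green fluorescent reporter for Pitx3, a transcription factor of midbrain dopaminergic neurons. Treated cells received sonic hedgehog (SHH) and FGF8, secreted signals of the ventral midbrain, while control cells were grown over the same days without them. All groups share the Pitx3-GFP background, and the day 5 cells had already differentiated for 5 days, so day 5 is not the undifferentiated state. Whether cells were sorted by the reporter, and whether the 3 replicates of a group were separate cultures, is not given in the sources used here, so the p-values measure the spread between these arrays, which may be technical. miRNAs were measured in bulk RNA on one-colour Agilent mouse arrays.

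miRNAs are short RNAs that repress messenger RNAs by pairing through their seed, bases 2 to 8 of the mature strand, so miRNAs with the same seed tend to share targets. In pluripotent cells the miR-302 cluster, the miR-290 cluster and miR-17-92 with its paralogs are abundant and favour proliferation, while LIN28 blocks the maturation of let-7. When pluripotent cells turn neural, let-7, miR-125 and the neuronal miRNAs miR-9 and miR-124 are known to accumulate as the pluripotency miRNAs decline.

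Of the 307 miRNAs tested, 228 had a mature sequence of the same name in the RefSeq table (GRCm38.p6). The sequences printed here are those of families that moved together, since each family is defined by its seed. In each, the seed is in capitals. The let-7 family shares the seed GAGGUAG and differs at a few bases of the tail:
let-7a-5p: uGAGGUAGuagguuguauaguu
let-7c-5p: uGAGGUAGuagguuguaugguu
let-7f-5p: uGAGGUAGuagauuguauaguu
let-7e-5p: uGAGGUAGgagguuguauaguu
let-7b-5p: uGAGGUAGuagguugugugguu
let-7g-5p: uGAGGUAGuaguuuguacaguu
let-7i-5p: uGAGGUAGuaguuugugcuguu
Counted from 1 at the 5′ end of let-7a, let-7c differs from let-7a by A19G, let-7f by G12A and let-7e by U9G, while let-7b carries A17G and A19G. Array probes for such near-identical members may take up signal from each other, so the split of the signal among let-7 members is uncertain.

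The second group of sequences is shown because the same 6 letters, AAGUGC, lie within bases 2 to 8 of miRNAs from different clusters, in members of the miR-302, miR-290 and miR-17 families:
miR-302d-3p: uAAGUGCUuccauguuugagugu
miR-302b-3p: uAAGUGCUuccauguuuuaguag
miR-294-3p: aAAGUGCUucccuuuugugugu
miR-17-5p: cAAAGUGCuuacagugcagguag
miR-20b-5p: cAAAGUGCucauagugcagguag
The third group, which shares the seed AUUGCAC, joins miR-367 of the miR-302 cluster with miR-363 and miR-92a of the miR-17-92 paralogs:
miR-367-3p: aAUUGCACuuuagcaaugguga
miR-363-3p: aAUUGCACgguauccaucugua
miR-92a-3p: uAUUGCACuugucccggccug
The last pair are the largest risers outside let-7 that were above background on all arrays of both groups, and the hairpin of miR-99a lies beside a let-7 gene:
miR-125b-5p: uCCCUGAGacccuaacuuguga
miR-99a-5p: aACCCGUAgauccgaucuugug

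A level is given here as the log2 of the scaled signal, so that 0 is the 75th percentile of the probes above background on every array and a difference of 1 is a doubling. Levels under -4.30 were raised to that floor, near the lowest signal the arrays could tell from background. Between 239 and 333 of the 1122 mouse miRNAs on the array were above background on an array, no spot was saturated, and the number of arrays limits the precision. The median SD between replicates was 0.207 at day 5 and 0.0955 at treated day 14, so day 5 was the more variable group. Its replicates 1 and 3 were also the dimmest arrays of the series, with scaling factors of 160 and 149 intensity units against 336 for replicate 2. Of the 6 arrays, 5 lay on the same slide, and treated day 14 replicate 3 lay on the slide that held all controls.

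Between day 5 and treated day 14, 221 of 307 miRNAs differed in limma (Benjamini-Hochberg adjusted p below 0.05), which is 72% of those tested. The 145 that rose made up 47.2% and the 76 that fell made up 24.8%, and the median over all tested miRNAs was 0.25. The change exceeded 2-fold for 85 of the called miRNAs and 4-fold for 32. The 3 arrays of one group all lay above the 3 of the other for 208 miRNAs, 67.8% of those tested.

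The share of rises depended on how the arrays were scaled. Against 145 up and 76 down in the scaling used, the split was 107 and 85 with the percentile over all mouse probes, 110 and 91 with quantile normalization and 93 and 101 with median scaling. It was 72 and 91 after normexp background correction and 92 and 99 with the scanner software's total gene signal. The median over all miRNAs moved to -0.05 with median scaling, to -0.17 after normexp and to -0.02 with total gene signal. The direction of differences no larger than these shifts is therefore not settled. On slide 1 alone, without treated day 14 replicate 3, 206 miRNAs differed, 142 up and 64 down. With same-numbered replicates as a block and only these 6 arrays, 189 differed, 126 up and 63 down.

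**Figure D1:**
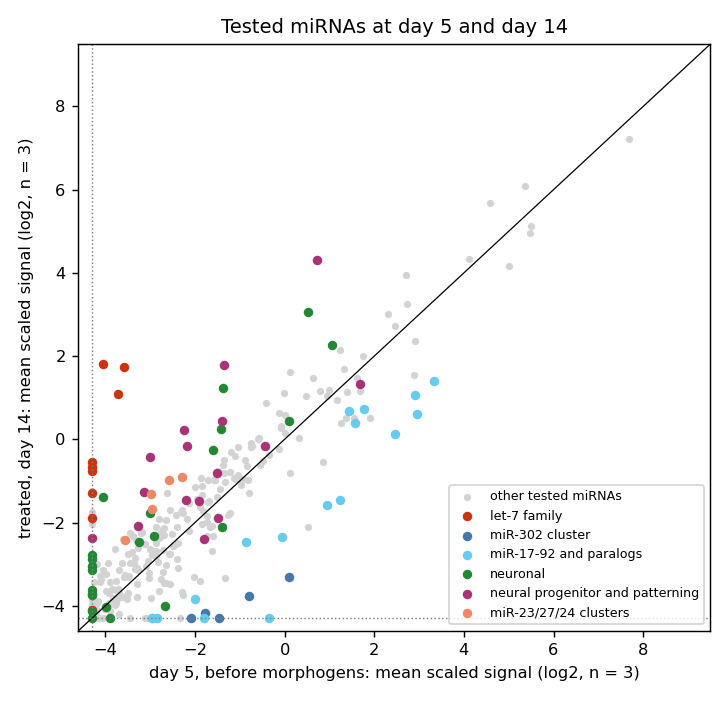
Mean level of each tested miRNA at day 5 (x axis) and at treated day 14 (y axis), as log2 scaled signal over 3 arrays each; the solid line marks equal levels, the dotted lines the floor, and a miRNA in several lists has the colour of the first. The let-7 family stands above the line at the left edge, and the miR-302 cluster and miR-17-92 with its paralogs lie below the line.

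The let-7 family, which represses growth and pluripotency genes such as Lin28 and Myc, held the largest rises of the course. Of its 20 mature forms on the array, 9 exceeded background somewhere in the series, and all 9 were called up, with a median of 3.63 (3.26 with members below background at day 5 set at their bound). Over all tested miRNAs 47.2% were called up. None of the 9 was above background on all 3 day 5 arrays, while 8 were on all 3 treated day 14 arrays. The 9 thus entered the test through later groups, and the 6 below background on every day 5 array had little room to fall. The count of rises therefore follows in part from the filter. In bulk RNA, a change in how many cells make a miRNA and a change in its amount per cell cannot be told apart, here or in any other result.

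let-7c-5p stood at -3.88, -4.06 and -4.21 on the day 5 arrays and at 1.63, 1.86 and 1.92 on the treated day 14 arrays. It rose by 5.85 ± 0.11 (SE; adjusted p = 1.46e-14), but only 1 of its 3 day 5 values was above background. let-7a-5p stood at -3.44, -3.35 and -3.94 at day 5 and at 1.59, 1.83 and 1.80 at day 14. The rise of let-7a-5p was 5.32 ± 0.15 (adjusted p = 7.15e-13), with 2 of 3 day 5 arrays above background.

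let-7f-5p went from -3.66, -3.55 and -3.94 to 0.99, 1.20 and 1.10, a rise of 4.81 ± 0.10 (adjusted p = 3.54e-14). In each of these members the lowest day 14 array lay far above the highest day 5 array. The size of the let-7 rise depended on the background treatment, since after normexp correction the family's median was 1.38.

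The other let-7 members were below background on every day 5 array, so their rise has only a lower bound. let-7g-5p, at -0.57, -0.43 and -0.62 on the day 14 arrays, was at least 10.4-fold higher (adjusted p = 2.54e-14). let-7e-5p, at -0.78, -0.59 and -0.61, was at least 9.56-fold higher (adjusted p = 1.36e-11). let-7b-5p, at -0.96, -0.67 and -0.63, was at least 8.95-fold higher (adjusted p = 3.54e-12).

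let-7i-5p rose at least 6.19-fold and let-7d-5p at least 4.09-fold. miR-98-5p, a family member with the same seed, was called with a fitted difference of 0.20 (adjusted p = 0.0422) but stayed near the floor at -4.07, -3.98 and -4.24, and no fold is given for it. Its call was lost when any day 5 array, or treated day 14 replicate 1 or 2, was left out, and its sign turned after normexp (-0.21). Without miR-98-5p the let-7 rises number 8. The 9 members with the seed GAGGUAG therefore differed widely in size.

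The let-7 genes lie in several clusters, some with miR-99, miR-100 and miR-125, which regulate growth and the timing of development. The hairpins of let-7d, let-7f-1 and let-7a-1 lie at chr13:48536012-48538272 on the minus strand (GRCm38.p6). miR-99a and let-7c-1 lie together at chr16:77598936-77599750 on the plus strand, let-7c-2 and let-7b at chr15:85706603-85707403 on the plus strand, and let-7e with miR-125a at chr17:17830352-17830879 on the plus strand. All tested members of these 4 clusters rose, although a miRNA made from more than 1 gene, such as let-7c, cannot be assigned to a gene by the array.

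miR-125b-5p, which promotes neural differentiation and stood well above background throughout, measured 0.61, 0.61 and 0.97 at day 5 and 4.21, 4.31 and 4.37 at day 14. It rose by 3.57 ± 0.11 (adjusted p = 1.52e-12), and the arrays of the groups did not overlap. miR-99a-5p went from -1.41, -1.30 and -1.36 to 1.73, 1.79 and 1.81, a rise of 3.14 ± 0.06 (adjusted p = 1.46e-14). Its seed partners miR-100-5p and miR-99b-5p rose by 2.46 ± 0.07 and 1.88 ± 0.11, so all 3 tested miRNAs with the seed ACCCGUA rose.

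miR-125a-5p, from the let-7e cluster, rose by 2.59 ± 0.10 from -3.07, -3.15 and -2.81 to -0.51, -0.35 and -0.40. Its partner strand miR-125a-3p rose by 0.43 ± 0.11, a call that was lost under each other scaling (0.09 to 0.26) and with the replicate block in these 6 arrays (adjusted p = 0.083). All 4 tested members of the miR-181 family, seed ACAUUCA, rose too, led by miR-181a-5p at 2.00 ± 0.08, with the others between 0.70 and 1.18.

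In the list of neural progenitor and patterning miRNAs as a whole, 13 of 16 tested members rose and 3 fell, and the median was 1.52. The patterning miRNA miR-135a-5p, which is linked to midbrain WNT signalling, rose by 1.86 ± 0.15 from -1.33, -1.19 and -1.69 to 0.53, 0.70 and 0.12. The members that fell were miR-92b-3p (-0.59 ± 0.16), miR-135a-1-3p (-0.41 ± 0.12) and miR-219-5p (-0.36 ± 0.10). With the replicate block in these 6 arrays the calls of miR-92b-3p (adjusted p = 0.0815) and miR-135a-1-3p (adjusted p = 0.151) were lost, and the sign of miR-135a-1-3p turned with the mean of all its probes (0.062). miR-219 is otherwise known for oligodendrocyte maturation, and its call was lost after normexp correction and with quantile normalization. The other tested member of the glia list, miR-338-3p, was called in the other direction at 0.27 (limma adjusted p = 0.021). Its sign turned after normexp, with median scaling and with total gene signal.

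**Figure D2:**
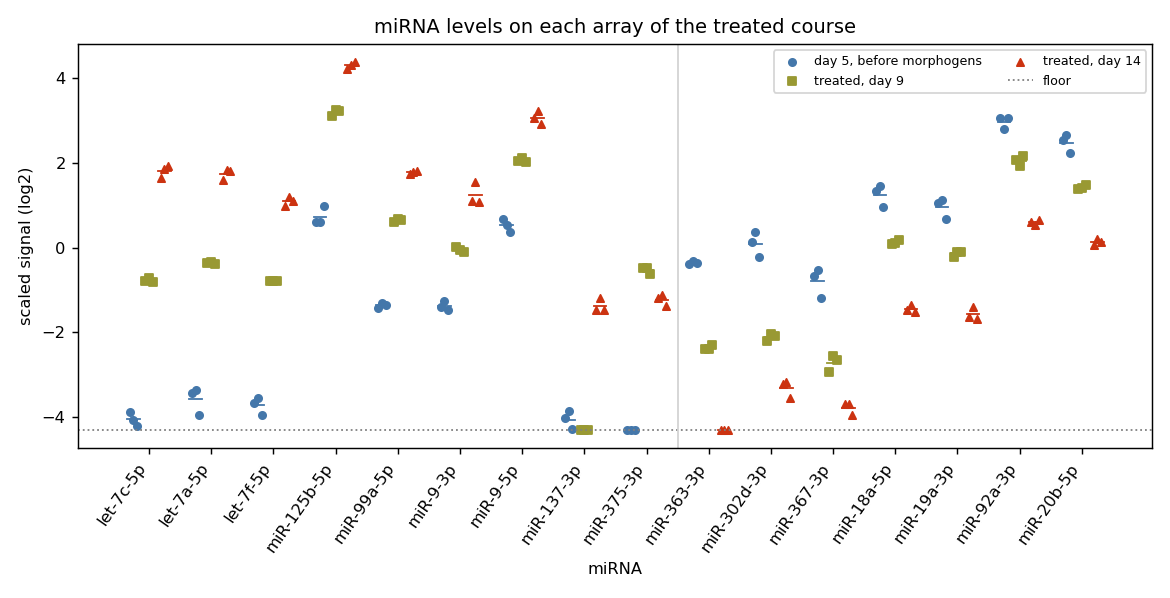
Level (log2 scaled signal) on each array of day 5, treated day 9 and treated day 14 for 9 miRNAs that were higher at day 14 (left of the grey line) and 7 that were lower (right); short lines are means of 3 arrays and the dotted line is the floor. In each of these miRNAs the 3 day 14 arrays lie entirely above or entirely below the 3 day 5 arrays.

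The miR-302 cluster marks primed pluripotent cells such as EpiSC. All 5 of its tested members were above background on every day 5 array, and all 5 fell, with a median of -2.84. Their summed scaled signal was 2.02 to 3.00 on the day 5 arrays and 0.302 to 0.354 on the treated day 14 arrays. The hairpins of miR-302b, miR-302c, miR-302a, miR-302d and miR-367 lie within chr3:127545228-127545807 on the plus strand.

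miR-302d-3p measured 0.14, 0.38 and -0.23 at day 5 and -3.21, -3.17 and -3.56 at day 14. It fell by 3.41 on the log2 scale (SE 0.16; adjusted p = 1.11e-10), and stayed above background on all 3 day 14 arrays. miR-367-3p went from -0.66, -0.53 and -1.18 to -3.68, -3.69 and -3.96, a difference of -2.98 ± 0.16 (adjusted p = 8.46e-10). miR-302d and miR-367 were thus reduced, not lost.

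miR-302a-3p, at -1.31, -1.27 and -1.80 at day 5, was below background on all 3 day 14 arrays and at least 7.16-fold lower (adjusted p = 2.93e-11). miR-302b-3p, at -2.04, -1.93 and -2.29 at day 5, was at least 4.63-fold lower (adjusted p = 6.80e-12). miR-302c-3p fell by 2.40 on the log2 scale (SE 0.14), with 1 day 14 array above background.

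The miR-290 cluster marks naive pluripotent cells. Of its 14 mature forms 6 exceeded background on some array, and the 2 that were tested both fell. miR-294-3p went from -3.16, -2.85 and -3.26 at day 5 to the floor at day 14, where 1 array was above background, a difference of -1.20 ± 0.09 (adjusted p = 3.05e-08). miR-290-5p changed by -0.81 ± 0.16 (adjusted p = 3.42e-04).

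miR-17-92 and its paralogs, which drive proliferation, fell as a group. All 17 tested members fell, with a median of -1.86, and their summed scaled signal dropped from 42.9 to 50.9 on the day 5 arrays to 13.0 to 13.9 on the treated day 14 arrays. Their 3 clusters lie at chr14:115043671-115044506 on the plus strand (miR-17 to miR-92a-1), chrX:52741693-52742567 on the minus strand (miR-106a to miR-363) and chr5:138165321-138165818 on the minus strand (miR-106b, miR-93 and miR-25).

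The clusters differed in the size of the fall. In the X-linked cluster the 6 tested members fell with a median of -2.35, in the chromosome 14 cluster the 9 fell with a median of -1.93, and in the chromosome 5 cluster the 4 fell with a median of -1.11. miR-92a and miR-19b are made from both of the first 2 clusters and are counted in each. The difference between clusters was not tested.

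miR-363-3p, at the end of the X-linked cluster, had the largest fall of all tested miRNAs. It measured -0.38, -0.32 and -0.36 at day 5 and lay at the floor on all 3 day 14 arrays, with 1 of them above background, a fall by 3.94 on the log2 scale (SE 0.07; adjusted p = 1.46e-14). miR-18a-5p went from 1.33, 1.45 and 0.95 to -1.47, -1.36 and -1.53, a difference of -2.70 ± 0.11 (adjusted p = 2.72e-11). miR-18b-5p, which shares the first bases of miR-18a, was at least 5.69-fold lower.

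miR-19a-3p, a member of the chromosome 14 cluster, fell from 1.04, 1.12 and 0.69 to -1.63, -1.40 and -1.68 (difference -2.52 ± 0.12). miR-92a-3p went from 3.05, 2.79 and 3.05 to 0.61, 0.54 and 0.66 (difference -2.36 ± 0.08). miR-20b-5p went from 2.53, 2.65 and 2.23 to 0.06, 0.21 and 0.14 (difference -2.33 ± 0.10). These members stayed above background on all 6 arrays, so their falls do not rest on the floor.

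miR-17-5p changed by -2.30 ± 0.12, while miR-93-5p and miR-106b-5p of the chromosome 5 cluster changed by -1.03 ± 0.08 and -0.76 ± 0.09. All 3 carry the seed AAAGUGC, so miRNAs of 1 seed fell by different amounts. Of the 228 miRNAs with a sequence, 8 hold the letters AAGUGC within bases 2 to 8 (3.51%), namely the 5 of the seed AAAGUGC and the 3 of the seed AAGUGCU. All 8 fell, with a median of -2.03, against 54 that fell and 109 that rose among the 220 without these letters. The members of this set belong to lists already described, so it adds no independent count.

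The 6 tested miRNAs with the seed AUUGCAC also all fell: miR-363-3p, miR-367-3p, miR-92a-3p, miR-25-3p, miR-92b-3p and miR-32-5p. Their differences ran from -3.94 to -0.25, and the smallest, miR-32-5p, was below background on the day 14 arrays.

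**Figure D3:**
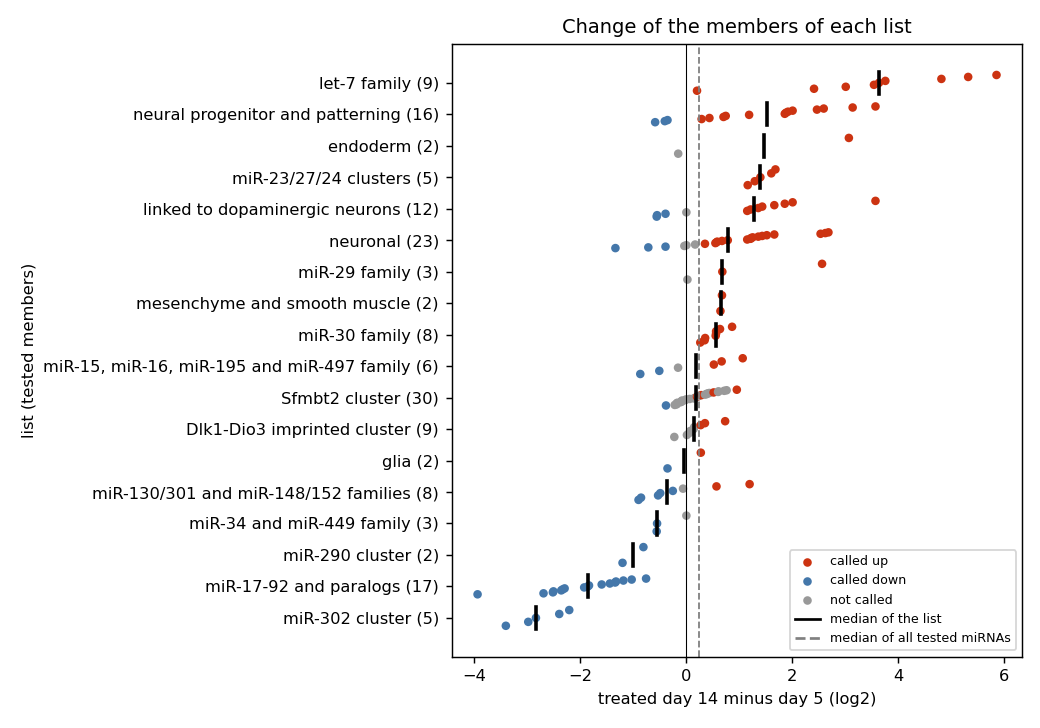
Difference between treated day 14 and day 5 (log2, x axis) for each tested member of the lists with at least 2 tested members; red is called up, blue called down, grey not called, the black bar is the list's median, the dashed line the median of all 307 tested miRNAs (0.25), and the vertical offset within a list only separates points. The miR-302 and miR-17-92 lists lie wholly below 0 and the let-7 and miR-23/27/24 lists wholly above it.

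Neuronal miRNAs rose in part. Of 23 tested members 17 rose, 3 fell and 3 were not called, against 47.2% that rose and 24.8% that fell over all tested miRNAs. The median was 0.78 (0.77 with bounds). Above background on all 3 arrays were 11 members at day 5 and 21 at treated day 14, and for 9 members the change was only a bound. A member below background on every day 5 array had little room to fall, so the count of rises follows in part from the filter. Their summed scaled signal was 6.95 to 7.67 on the day 5 arrays and 19.9 to 23.1 on the treated day 14 arrays. Many members lay near the floor, and after normexp correction the list's median was 0.05.

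miR-9, which drives neural progenitors out of the cell cycle, was above background on every day 5 array in both strands. miR-9-5p measured 0.67, 0.54 and 0.36 at day 5 and 3.05, 3.21 and 2.91 at day 14, a rise of 2.53 ± 0.10 (adjusted p = 3.45e-11). miR-9-3p went from -1.39, -1.27 and -1.48 to 1.11, 1.54 and 1.07, a rise of 2.62 ± 0.13 (adjusted p = 2.04e-10). The strands rose by amounts within their errors of each other.

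miR-124-3p, the most neuron-restricted miRNA of the brain, was already above background at day 5, at 1.07, 0.98 and 1.11. It rose to 2.17, 2.28 and 2.35, by 1.21 ± 0.07 (adjusted p = 1.46e-09). Its partner strand miR-124-5p was called in the other direction, at -0.39 ± 0.10, with all of its values at or near the floor.

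miR-137-3p, a regulator of neuronal maturation, went from -4.03, -3.86 and -4.29 to -1.46, -1.19 and -1.48, a rise of 2.68 ± 0.13 (adjusted p = 2.85e-10), with 1 day 5 array above background. Other risers of the list included miR-598-3p (at least 2.20-fold), miR-129-2-3p (1.22 ± 0.15), miR-551b-3p (at least 1.83-fold) and miR-128-3p (0.58 ± 0.08). miR-139-3p fell by 1.34 on the log2 scale (SE 0.13), and miR-212-3p changed by -0.72 ± 0.26, from -1.08, -1.23 and -1.87 at day 5 to -1.78, -1.73 and -2.83 at day 14. Its arrays overlap, since day 5 replicate 3 lies below treated day 14 replicates 1 and 2.

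miR-212-3p and miR-132-3p come from the same locus, at chr11:75173388-75173747 on the plus strand, and are induced by neuronal activity through CREB. miR-132-3p was below background on every day 5 array, stood at -2.86 ± 0.12 (mean ± SD, n = 3 arrays) at day 14 and was at least 2.08-fold higher (adjusted p = 1.45e-07), a call that was lost after normexp correction. Without treated day 14 replicate 3, the array on the other slide, the difference of miR-212-3p was -0.36 and its call was lost (adjusted p = 0.123), and it was also lost without day 5 replicate 1 (-0.56) or 2 (-0.63).

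Among miRNAs that published work ties to dopaminergic neurons, 8 of 12 tested members rose and 3 fell, with a median of 1.28 (1.13 with bounds). Over all tested miRNAs 47.2% rose and 24.8% fell. Above background on all 3 arrays were 8 members at day 5 and 11 at treated day 14. Several members are also in the neuronal and progenitor lists. Against control day 14 cells, 4 of the 12 were higher and 4 lower in treated cells, with a median of -0.03. Over all tested miRNAs 39.1% were higher and 14% lower. The summed scaled signal of the list at day 14 was 28.4 to 30.5 in treated and 36.1 to 41.8 in control cells. miR-218-5p, a miRNA of hindbrain and motor neurons also named in dopaminergic cells, went from -1.16, -1.56 and -1.54 to 0.38, 0.19 and 0.15 and rose by 1.66 ± 0.10 (adjusted p = 3.08e-09). miR-7a-5p, which represses alpha-synuclein, went from -1.34, -1.69 and -1.77 to -0.26, -0.05 and -0.43 and rose by 1.36 ± 0.12 (adjusted p = 2.15e-07).

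miR-7b-5p was below background at day 5 and at least 1.71-fold higher at day 14, with a sign that turned after normexp (-0.034). miR-133b, the miRNA first linked to Pitx3 in dopaminergic neurons, was above background on 0 of the 15 arrays. miR-34b-5p and miR-34c-5p, p53-responsive miRNAs of ciliated cells that are reduced in Parkinson's disease brain, were lower at day 14 than at day 5.

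miR-34b-5p measured -1.14, -1.04 and -1.50 at day 5, -0.67, -0.74 and -0.64 at day 9 and -1.66, -1.73 and -1.95 at day 14. Its difference over the whole course was -0.55 ± 0.12 (adjusted p = 7.37e-04), after a rise by day 9. miR-34c-5p changed by -0.56 ± 0.11 (adjusted p = 3.17e-04) and followed the same path, from -1.17, -1.17 and -1.46 through -0.77, -0.75 and -0.59 to -1.66, -1.96 and -1.86.

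The miR-23/27/24 clusters, regulators of differentiation in many lineages, rose together. All 5 tested members rose, with a median of 1.40, and all were above background on every day 5 and treated day 14 array. miR-23a-3p went from -3.08, -2.95 and -2.93 to -1.27, -1.43 and -1.21, a rise of 1.68 ± 0.07 (adjusted p = 6.65e-11). miR-23b-3p rose by 1.60 ± 0.10, miR-24-3p by 1.40 ± 0.08, miR-27b-3p by 1.29 ± 0.10 and miR-27a-3p by 1.16 ± 0.08.

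The miR-29 family, seed AGCACCA, represses collagen and DNA methyltransferase genes and rises as neurons mature. miR-29a-3p was below background at day 5, stood at -1.61, -1.74 and -1.85 at day 14, and was at least 4.54-fold higher (adjusted p = 6.80e-12). miR-29c-3p rose by 0.68 ± 0.08, although it stood at -0.01 after normexp correction. miR-29b-3p had a difference of 0.02 ± 0.11 (adjusted p = 0.886), although it had been higher at day 9. Without treated day 14 replicate 3 its difference was 0.19 and passed the threshold (adjusted p = 0.0383).

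All 8 tested members of the miR-30 family, broadly expressed repressors of mesenchymal transition, were called up with a median of 0.56, close enough to the median of all miRNAs (0.25) that the scaling matters. miR-30d-5p rose by 0.86 ± 0.10 and miR-30a-5p by 0.56 ± 0.06. The sign of miR-30c-1-3p turned after normexp correction (from 0.63 to -0.24).

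In the family of miR-15, miR-16, miR-195 and miR-497, repressors of cyclins, 3 of 6 tested members rose, 2 fell and 1 was not called. miR-15b-5p and miR-16-5p, from hairpins at chr3:69009772-69009996 on the plus strand, changed by -0.87 ± 0.10 and -0.51 ± 0.07. miR-322-5p, with the same seed AGCAGCA but from the X chromosome, rose by 1.06 ± 0.09. The family's median was 0.18 (-0.01 with bounds) and turned negative under several scalings.

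Among the families of miR-130 with miR-301 and of miR-148 with miR-152, 5 of 8 tested members fell and 2 rose. miR-130b-3p changed by -0.86 ± 0.07 and its partner strand miR-130b-5p by -0.90 ± 0.11. miR-152-3p rose by 1.19 ± 0.13 from -3.37, -3.17 and -3.80 to -2.14, -2.34 and -2.29, and miR-148a-3p rose by 0.57 ± 0.14. The call of miR-148a-3p was lost with median scaling, quantile normalization, total gene signal and normexp, and that of miR-152-3p after normexp and with a floor 4 times higher.

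Most listed members of the large imprinted and repeated clusters were not called. In the list for the Dlk1-Dio3 cluster, whose maternally expressed miRNAs are a mark of full pluripotency, 112 mature forms had probes, 14 exceeded background on some array, and of the 9 tested 3 rose and 0 fell. The tested members include miR-342-3p, miR-342-5p and miR-345-5p, which were not called. Whether their hairpins lie inside the cluster was not checked, so these counts and the median describe the list, not the cluster. The list left out miR-432, whose hairpin lies with that of miR-770 at chr12:109563692-109595388 on the plus strand. miR-432 rose by 1.19 (limma adjusted p = 8.49e-06), and at day 5 only replicate 2 was above background. Also left out was miR-1906, with hairpins on chromosome 12 and the X chromosome, which changed by -0.60 (adjusted p = 0.00155). miR-370-3p rose by 0.73 ± 0.15, while miR-494-3p, at 1.60, 1.64 and 1.99 at day 5 and 2.12, 1.98 and 1.93 at day 14, had overlapping arrays and a difference of 0.27 ± 0.10 (adjusted p = 0.0224, and 0.186 with same-numbered replicates as a block in these 6 arrays) whose sign turned with median scaling and total gene signal.

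Of the Sfmbt2 cluster, intronic repeats whose members are nearly identical and may share signal, 30 were tested, 4 rose and 1 fell. miR-467e-5p had the largest called difference at 0.95 ± 0.15, with 1 day 5 array above background and a sign that turned after normexp correction, and miR-466b-3p was lower by 0.38 (difference -0.38 ± 0.07). The medians of the Dlk1-Dio3 and Sfmbt2 lists (0.14 and 0.17) turned negative under some scalings.

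miRNAs that mark other cell types were mostly below background. None of the 10 miR-200 family forms (epithelium), 13 striated muscle forms, 12 endothelium and blood forms or 9 Hox-cluster forms (hindbrain and spinal cord level) was above background on any array. In the mesenchyme and smooth muscle list 4 of 11 forms exceeded background on some array, of which 2 were tested. miR-21-5p rose by 0.67 ± 0.12 from -0.59, -0.56 and -1.10 to -0.06, -0.02 and -0.16, and the bound for miR-199a-3p was a rise of at least 1.20-fold, with its sign turned after normexp.

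The summed scaled signal of miR-21-5p and miR-199a-3p was 0.516 to 0.729 at day 5 and 0.978 to 1.05 at treated day 14. Most of it came from miR-21-5p, so the sum describes that miRNA and not mesenchyme as a whole. miR-143 and miR-145 were not among the tested miRNAs. The part of other cell types in the neural changes was not tested.

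miR-375-3p, best known from pancreatic islets and other endocrine cells, was the exception among the endoderm markers. It was below background on all 3 day 5 arrays, stood at -1.18, -1.13 and -1.38 at treated day 14, and was at least 6.45-fold higher (adjusted p = 5.77e-14). Of the 15 endoderm forms on the array, the only other one tested, miR-216a-5p, was below background at day 14 and not called (-0.15, and called at -0.23 without day 5 replicate 3). The endoderm hepatic and intestinal markers miR-122, miR-192, miR-194 and miR-215 were not tested.

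Outside the lists, miR-1949 had the largest change. It went from 0.42, 0.41 and 0.76 at day 5 to -2.13, -2.07 and -2.13, a fall by 2.64 on the log2 scale (SE 0.10; adjusted p = 2.72e-11). Named after their values were seen, miR-335-5p fell by 1.42 on the log2 scale (SE 0.14) and miR-335-3p by 1.95 (SE 0.08), and the hypoxia-induced miR-210-3p rose by 1.49 ± 0.09 from 0.26, 0.11 and 0.00 to 1.58, 1.54 and 1.72. Both strands of miR-335, from a host gene that is imprinted in the mouse, thus fell together.

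For 36 hairpins both strands were tested, and in 16 of them both strands were called in the same direction, 9 up and 7 down. In 3 hairpins the strands were called in opposite directions: miR-124, miR-149 (-1.52 in the 5p and 0.40 in the 3p strand) and miR-3096b (0.40 and -1.39). These 3 were named after their values were seen, and the smaller of the opposed differences are close to the shifts that scaling alone gives: miR-3096b-5p stood at -0.068 with total gene signal.

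The treated day 9 arrays, all on slide 1 with the day 5 arrays, divide the course. From day 5 to day 9, 181 miRNAs were called (59% of those tested), 116 up (37.8%) and 65 down (21.2%). From day 9 to day 14, 205 were called (66.8%), 109 up (35.5%) and 96 down (31.3%). The arrays of the groups did not overlap for 61.9% and 75.9% of the miRNAs. With quantile normalization these splits were 92 and 87, and 97 and 102. A test of whether the second change differed from the first called 195 miRNAs (63.5%), 28.3% with a higher and 35.2% with a lower second change, and the comparisons share the day 9 arrays.

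Most let-7 members rose in both intervals. let-7c-5p rose by 3.27 ± 0.11 to day 9 and by a further 2.58 ± 0.11 to day 14. let-7b-5p was at least 1.43-fold higher at day 9 than at day 5 and then rose by 2.64 ± 0.11, and let-7i-5p was at least 1.39-fold higher and then rose by 2.16 ± 0.10. Both were below background at day 5, so the size of their first change, and whether the second exceeded it, could not be measured.

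miR-137-3p rose late. It lay at the floor on all 3 day 9 arrays and rose by 2.92 ± 0.13 from day 9 to day 14, and the second change exceeded the first by 3.15 ± 0.23 (adjusted p = 1.07e-07). miR-124-3p, at 1.31, 1.34 and 1.34 on the day 9 arrays, also changed more in the second interval (0.93 ± 0.07) than in the first (0.28 ± 0.07), a difference of 0.66 ± 0.12. miR-9-3p rose evenly, by 1.33 ± 0.13 and 1.29 ± 0.13. Its partner strand miR-9-5p had a smaller second change than first (difference -0.55 ± 0.18, limma adjusted p = 0.0163).

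The pluripotency clusters fell early. miR-302a-3p fell by 2.56 on the log2 scale (SE 0.11) to day 9, when it stood at -4.08, -4.04 and -3.93. miR-302d-3p fell by 2.20 (SE 0.16) and then by 1.20 (SE 0.16), so that the second change was smaller (difference 1.00 ± 0.27, adjusted p = 0.00541). miR-367-3p also had a smaller second change (difference 0.87 ± 0.28). For miR-302a, miR-302b and miR-302c, at or near the floor by day 9, the floor left no room for a second change as large as the first.

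miR-17-92 members fell in both intervals. miR-20b-5p fell by 1.05 (SE 0.10) and then by 1.28 (SE 0.10), and miR-17-5p by 1.11 (SE 0.12) and then by 1.19 (SE 0.12), and in neither did the test of unequal change reach the threshold (adjusted p = 0.256 and 0.732). miR-92a-3p fell more in the second interval, by 1.45 (SE 0.08) against 0.92 (SE 0.08), a difference of -0.53 ± 0.14. Of the 17 members, 7 had a second change more negative than the first and 6 did not pass the test. For the other 4 (miR-18a-3p, miR-18b-3p, miR-18b-5p and miR-20a-3p), below background on every treated day 14 array, the second change was limited by the floor.

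**Figure D4:**
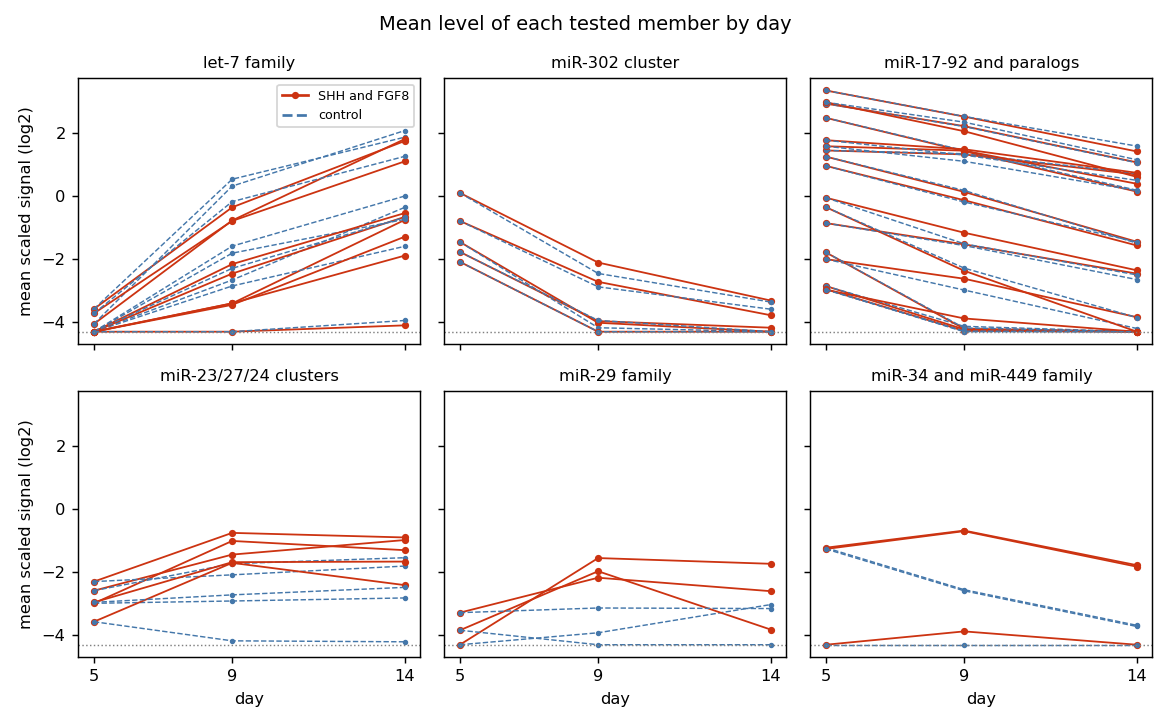
Mean level (log2 scaled signal, 3 arrays) of each tested member of 6 lists at days 5, 9 and 14, in cells given SHH and FGF8 (solid red) and in control cells (dashed blue), which share the day 5 arrays; the dotted line is the floor. miR-302 and miR-17-92 members follow similar paths in both, while miR-34b and miR-34c are higher in treated cells from day 9. let-7 members rise in both, but at day 9 their summed scaled signal was 2.63 to 2.73 in treated and 4.35 to 5.39 in control cells.

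Some miRNAs peaked at day 9, so the comparison of day 14 with day 5 hides most of their change. miR-29b-3p measured -3.77, -3.83 and -3.91 at day 5, -1.99, -2.00 and -1.93 at day 9 and -3.53, -3.76 and -4.16 at day 14. It rose by 1.87 ± 0.11 and then fell by 1.85 (SE 0.11). miR-132-3p, below background at day 5, stood at -1.61, -1.69 and -1.65 at day 9 and then fell by 1.21 (SE 0.12).

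miR-674-5p rose by 2.05 ± 0.12 and then fell by 1.59 (SE 0.12), and its partner strand miR-674-3p rose by 2.15 ± 0.12 and then fell by 1.26 (SE 0.12). miR-375-3p was at least 10.5-fold higher at day 9 than at day 5 and then fell by 0.70 (SE 0.07), from -0.48, -0.49 and -0.62. miR-29a-3p stood at -1.54, -1.57 and -1.56 at day 9, above all 3 of its day 14 arrays, with a second change of -0.18 ± 0.09 that missed the threshold (adjusted p = 0.0873). miR-23a-3p and miR-21-5p also rose to day 9, by 1.97 ± 0.07 and 1.35 ± 0.12, before they fell by 0.29 (SE 0.07) and 0.68 (SE 0.12).

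Control cells at day 14 show what 9 more days without the morphogens gave. Treated and control day 14 cells differed in 163 miRNAs (53.1% of those tested), 120 higher (39.1%) and 43 lower (14%) in treated cells, and the arrays of the groups did not overlap for 56% of the miRNAs. This split depended on the scaling: with the percentile over all mouse probes it was 37 higher and 77 lower. All controls lay on slide 2, with only treated day 14 replicate 3, and with the slide as a block 109 miRNAs were called, 77 higher and 32 lower. The 2 courses share the day 5 arrays, so their values are given side by side.

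let-7c-5p was 5.85 higher at day 14 than at day 5 in treated cells and 6.12 in control cells, and the difference between them was -0.27 ± 0.11 (adjusted p = 0.0565). miR-302d-3p changed by -3.41 in treated and -3.45 in control cells (difference 0.05 ± 0.16, adjusted p = 0.857), with a sign that turned under quantile normalization. miR-367-3p had a difference of -0.19 ± 0.16 between treated and control at day 14 and was not called. miR-302a-3p and miR-302b-3p were below background in both groups and miR-302c-3p on all but 1 of the 6 arrays, so no difference could be measured for them. In miR-17-92 and its paralogs 5 of 17 members were called, 3 higher and 2 lower in treated cells, and 4 could not be compared because they were below background in both groups.

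Of 9 let-7 members 4 were lower in treated cells at day 14, by up to 0.61 (let-7i-5p, difference -0.61 ± 0.10), and 0 were higher. Among neuronal miRNAs 15 of 23 were lower in treated than in control cells and 3 were higher. miR-124-3p, at 3.20, 3.40 and 3.31 in control cells, was lower in treated cells (difference -1.04 ± 0.07, adjusted p = 4.26e-08), and miR-9-3p had a difference of -1.05 ± 0.13 (adjusted p = 1.47e-05). Both differences kept their sign with the slide as a block, at -0.96 and -1.22. That estimate rests on treated day 14 replicate 3 alone against the controls.

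The neuronal miRNAs higher in treated cells were miR-218-5p, miR-212-3p and miR-551b-3p. The difference of miR-551b-3p was only 0.28 ± 0.05, close to the median over all tested miRNAs (0.22). That median moved to -0.08 with the percentile over all mouse probes, so the direction of miR-551b-3p is not settled. miR-218-5p stood at -1.13, -0.97 and -1.01 in control day 14 cells and was 1.27 ± 0.10 higher in treated cells (adjusted p = 2.40e-07). Its change from day 5 was 1.66 in treated and 0.39 in control cells.

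Higher levels in treated than in control cells at day 14 were found for miR-375, miR-34b, miR-34c, the miR-23/27/24 clusters and miR-29a. miR-375-3p was below background in all control arrays and at least 8.04-fold higher in treated day 14 cells (adjusted p = 3.46e-13). miR-34b-5p, at -3.81, -3.68 and -3.56 in control day 14 cells, was 1.90 ± 0.12 higher in treated cells, and miR-34c-5p was 1.89 ± 0.11 higher. Their fall from day 5 was -0.55 and -0.56 in treated cells and -2.46 and -2.45 in control cells.

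All 5 members of the miR-23/27/24 clusters were higher in treated cells, led by miR-27a-3p (1.79 ± 0.08) and miR-23a-3p (1.51 ± 0.07). miR-29a-3p was 1.29 ± 0.09 higher. For miR-23a-3p, the change from day 5 was 1.68 in treated and 0.17 in control cells, where it was not called (adjusted p = 0.0544).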

How the data were processed

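Values came from one-colour Agilent scanner files, processed with Feature Extraction 11.0.1.1 per the file headers. The deposited intensity is the background-subtracted processed signal of each spot, and the deposited flags of spots well above background, saturated or outlying were read as yes or no values. The deposited value table holds background-subtracted probe intensities that are not in log2. Its treated day 14 replicate 2 column repeats replicate 1 for 86.0% of probes (within 0.1%), so the table served only as an alternative. Per the submitters' processing notes, limma 3.20.9 was among their tools.

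Here the mean of each mouse probe's spots that were not outliers was scaled by the 75th percentile of that array, taken over 354 probes that exceeded background on all 15 arrays, then floored at -4.30 and taken to log2. A probe exceeded background where 50% or more of its spots carried that flag. The brightest probe stood for each miRNA, and the 307 tested were those that exceeded background on every array of 1 or more groups. Models were fitted with limma 3.58.1 in R 4.3.3 over all 15 arrays, with 10 residual degrees of freedom and Benjamini-Hochberg adjustment over the 307. A group below background on all of its arrays gives a fold only as a bound: the bright group's mean against the dim group's mean of, per array, the higher of the lowest signal above background and the miRNA's own. Tables and plots used Python 3.11.15, pandas 2.3.3 and matplotlib 3.10.9, and the fits were tested on simulated data.

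Deviations of same-numbered day 5 and treated day 14 replicates from their group means were weakly correlated (r = 0.365, 0.126 and 0.211). Between day 5 and treated day 9 the values were r = -0.144, 0.522 and -0.276. The main fit held no term for the replicate number, which entered as a block only in the alternatives. The labels do not say what the number marks. Alternatives covered scaling, background, floor, filter, slide, replicate block and each replicate left out.

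The named miRNAs were the 12 largest rises and the 12 largest falls between day 5 and treated day 14 whose arrays did not overlap, up to 4 called members of each of 23 lists (pluripotency, let-7, neuronal, progenitor, dopaminergic, other families and other cell types), the leading miRNAs of each interval, and a fixed set that includes miR-124-3p and let-7a-5p. Members and lists were chosen with earlier results of these data known. Further members are given as examples of their lists.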

Additional observations from a re-analysis of the deposited data

Results flagged for a closer look

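For 12 of the 307 tested miRNAs the change from day 5 to day 14 was called in opposite directions in treated and control cells, and the difference between treated and control day 14 passed limma's test. A further one, miR-676-3p, met the same calls, but it was below background on all day 5 and control day 14 arrays and has no measured control change. The courses share the day 5 arrays, and all controls lay on slide 2, where treated day 14 had only replicate 3. The values are from the fit without the slide. miR-27a-3p changed by 1.16 in treated and -0.64 in control cells, a difference of 1.79 (adjusted p = 8.17e-10), with 2 of 3 control day 14 arrays above background. miR-152-3p changed by 1.19 in treated and -0.42 in control cells, a difference of 1.62 (adjusted p = 1.86e-07). miR-370-3p changed by 0.73 and -0.88, a difference of 1.61 (adjusted p = 7.75e-07). miR-494-3p, also of the Dlk1-Dio3 cluster, changed by 0.27 and -0.93, a difference of 1.20.

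Both strands of miR-674 belong to this set. miR-674-3p changed by 0.89 and -0.29, a difference of 1.18, and miR-674-5p by 0.46 and -0.41, a difference of 0.87. miR-674-5p was below background on all control day 14 arrays, so its control value is a bound. With the slide as a block, which rests on treated day 14 replicate 3 alone against the controls, the differences of both strands were 1.20 and 0.85. miR-148a-3p changed by 0.57 and -0.53, a difference of 1.10, and miR-467b-5p of the Sfmbt2 cluster by 0.51 and -0.54, a difference of 1.06. miR-467a-5p changed by 0.20 and -0.96, a difference of 1.17, with 1 control day 14 array above background. miR-1934-3p changed by 0.38 and -0.67, a difference of 1.04, and miR-365-3p by 0.55 and -0.45, a difference of 1.00. miR-3068-3p changed by 0.26 and -0.25, a difference of 0.50, with 1 of 3 day 5 arrays and 2 of 3 control day 14 arrays above background.

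Each of the 12 treated changes lost its call or turned sign under at least 1 other scaling, floor or background correction. miR-1934-3p and miR-3068-3p also lost it when day 5 replicate 1 (0.33 and 0.17), treated day 14 replicate 1 (0.36 and 0.21) or treated day 14 replicate 2 (0.36 and 0.19) was left out, and miR-1934-3p without day 5 replicate 2 (0.30). miR-494-3p lost its call without day 5 replicate 1 (0.20), day 5 replicate 2 (0.22) or treated day 14 replicate 1 (0.21).

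The array also carries probes for viral miRNAs, which were outside the comparisons. Of 135 such probes, those of 4 viral miRNAs (mcmv-miR-M23-1-5p, mcmv-miR-M87-1, mcmv-miR-m88-1 and mghv-miR-M1-2-3p) were above background on all 15 arrays, control cells included. The brighter of the 2 probes of mcmv-miR-m88-1 had mean levels of -1.85 at day 5 and -1.67 at treated day 14.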

How the results depend on the processing

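With treated day 14 against day 5, 221 miRNAs were called, and the count moved to 140 when only miRNAs above background on all 15 arrays were tested and to 135 with a floor 4 times higher. The filter gave 119 calls for day 9 against day 5, 135 for day 14 against day 9 and 129 for the second against the first interval. The higher floor gave 134 for day 14 against day 9, 129 for the second against the first interval and 93 for treated against control day 14. Normexp correction gave 104, 130, 98 and 65 for these 4 comparisons in turn (day 9 against day 5, day 14 against day 9, second against first, treated against control).

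Leaving out 1 replicate gave 206 to 226 calls for day 14 against day 5, 167 to 198 for day 9 against day 5, 190 to 196 for day 14 against day 9, 175 to 207 for the second against the first interval and 146 to 164 for treated against control. The replicate block over all arrays gave 217 calls for day 14 against day 5, 180, 198 and 197 for the interval comparisons in the order above and 157 for treated against control.

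With the block and only the 6 arrays, the calls of miR-674-5p (adjusted p = 0.0522), miR-494-3p (0.186), miR-297a-3p (0.0763) miR-770-3p (0.115), miR-98-5p (0.123), miR-125a-3p (0.083), miR-92b-3p (0.0815), miR-1934-3p (0.0919), miR-3068-3p (0.187), miR-467a-5p (0.0685) and miR-135a-1-3p (0.151) were lost. Of the 101 miRNAs named or given as examples, 60 kept their direction and call under every alternative that gave them a value. Alternatives that did not test a miRNA, or left it at the floor on the arrays of both groups, were not counted against it. With a floor 4 times higher the latter held for 27 of the 101.

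Between day 14 and day 5 the sign turned after normexp for miR-195-5p (-0.21), miR-199a-3p (-0.17), miR-297a-3p (-0.30), miR-29b-3p (-0.33), miR-29c-3p (-0.010), miR-30c-1-3p (-0.24), miR-338-3p (-0.20), miR-467e-5p (-0.037), miR-674-5p (-0.22), miR-7b-5p (-0.034), miR-98-5p (-0.21), miR-1934-3p (-0.073), miR-3068-3p (-0.27), miR-467a-5p (-0.21) and miR-770-3p (-0.29). With median scaling it turned for miR-297a-3p (-0.058), miR-29b-3p (-0.27), miR-338-3p (-0.062), miR-3068-3p (-0.079), miR-467a-5p (-0.13) and miR-494-3p (-0.066). With total gene signal it turned for miR-297a-3p (-0.10), miR-29b-3p (-0.37), miR-338-3p (-0.00706), miR-3096b-5p (-0.068), miR-3068-3p (-0.00458), miR-467a-5p (-0.19) and miR-494-3p (-0.13), with quantile normalization for miR-467a-5p (-0.048), and with the mean of all probes for miR-135a-1-3p (0.062). Between treated and control day 14 it turned for miR-29b-3p after normexp (-0.029), miR-302d-3p with quantile normalization (-0.40) and miR-99a-5p with the percentile over all probes (-0.043). The cause was not tested.

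Total gene signal and the 6-array block were added after the data were seen. Normexp used the median spot signal. Differences at the floor on all arrays gave no value. Signal near background limits the size of the let-7 and miR-302 changes.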
